A study of Homo sapiens with 6 samples.

Results

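The DNA replication and mitosis genes described here are 60 genes taken by name from the 58735 rows of a deposited count table. They comprise 28 genes of DNA replication and 32 genes of mitosis. All 60 were found, each in 1 row, and all 60 passed the filter on low counts, so they were all among the 16081 genes tested. The table holds RNA sequencing of polyadenylated RNA from MDA-MB-231, an established human line of triple-negative breast cancer. The DMSO group received the solvent for 72 h, and the Azeliragon group received 2 µM of Azeliragon, an inhibitor of the receptor RAGE, for 72 h. Each group had 3 libraries, a, b and c, of the same line with no other genetic change or treatment named. No label says whether the 3 were separate cultures, so the p-values measure the spread between libraries, which may be technical. The comparison asks whether RNAs of dividing cells differed between inhibitor and solvent, and how large a shift these libraries leave room for.

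Cells copy their DNA once per division and then separate the copies in mitosis, and the RNAs for both tasks are made in waves. E2F transcription factors switch on the replication genes before S phase. A later wave, which depends on B-MYB and FOXM1, makes the mitosis genes, and both waves are repressed in resting cells. The RNAs are therefore widely used as markers of proliferation, and MDA-MB-231 is a fast-dividing line in culture. In RNA from a whole culture, fewer cells in a phase and less RNA per cell in that phase cannot be told apart, and RNA levels give no count of divisions.

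Library totals lay between 41455979 and 44313584 counts, so that 1 read was worth 0.0226 to 0.0241 CPM (counts scaled to the library total). Levels below are CPM scaled between libraries by TMM, with the SD over 3 libraries. VIM, CD44, CAV1 and AXL, which this mesenchymal-like line expresses, stood at or above 553.5 CPM in all 6 libraries. CDH1, ESR1 and PGR, which it is known to lack or nearly lack, had at most 14 reads in any library, and markers of leukocytes (PTPRC), endothelium (PECAM1) and hepatocytes (ALB) had at most 18. Library DMSO a stood apart from its group. In a principal component analysis, its score on the leading axis (37.6% of the variance) was -0.23, compared with 30.1 for DMSO b, 33.7 for DMSO c and -23.0 to -19.0 for the Azeliragon group. Results that rest on this library are given with and without it.

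None of the 60 genes passed the threshold of an adjusted p under 0.05 (edgeR quasi-likelihood test, Benjamini-Hochberg over 16081 genes). Over all genes tested, 6.27% passed, 2.75% with a higher level under Azeliragon and 3.53% with a lower one. These were 442 and 567 genes, and with trends on GC content and transcript length removed they were 946 and 745. At an unadjusted p under 0.05 there were 9 of the 60 genes, against 20.4% of all genes tested. DESeq2 called 1 of them, the mitotic kinesin KIF20A, and 8.83% of all genes. With limma-voom it was none of them and 6.39% of all genes. The fold changes were small in either direction. The median log2 fold change was -0.0081 over the 60 genes, 0.0086 over the replication genes and -0.028 over the mitosis genes, beside -0.0040 over all genes tested. The median size of the log2 fold change, whatever its sign, was 0.06 over the 60 genes and 0.15 over all genes tested. A difference of more than 25% above or 20% below DMSO (the same fold in either direction) was fitted for 2 of the 60, CCNE2 and PRC1, and for 23.7% of all genes tested. The 60 genes were more abundant than most, with a median level of 103.9 CPM in DMSO against 13.2 CPM over all genes tested, and had a median standard error of 0.07 against 0.12.

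**Figure D1:**
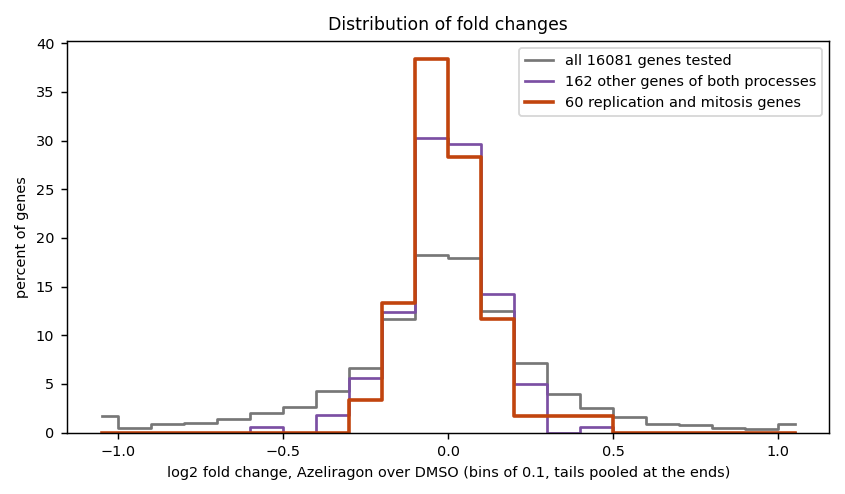
Distribution of log2 fold changes (horizontal axis, Azeliragon over DMSO, bins of 0.1) as the percent of genes in each bin (vertical axis) for the 60 replication and mitosis genes, 162 other genes of the same processes and all 16081 genes tested. The 60 genes crowd around 0, with 2 past 25% above DMSO and none past 1.5-fold.

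The intervals bound how large a change of each gene could be, given the spread between these libraries. The 95% interval of the fold change lay wholly between 20% below and 25% above the DMSO level for 48 of the 60 genes (80.0%), against 32.8% of all genes tested. It lay inside 1.5-fold for 58 genes, all but CCNE2 and PRC1, and inside 2-fold for all 60. The highest upper bound was that of PRC1, at 1.79-fold. The lowest lower bound was that of CCNB2, at 0.780 of the DMSO level. Without DMSO a, these bounds of PRC1 and CCNB2 were 0.995 and -0.379 on the log2 scale, the former just under 2-fold. Gene by gene, no interval reached a 2-fold change.

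**Figure D2:**
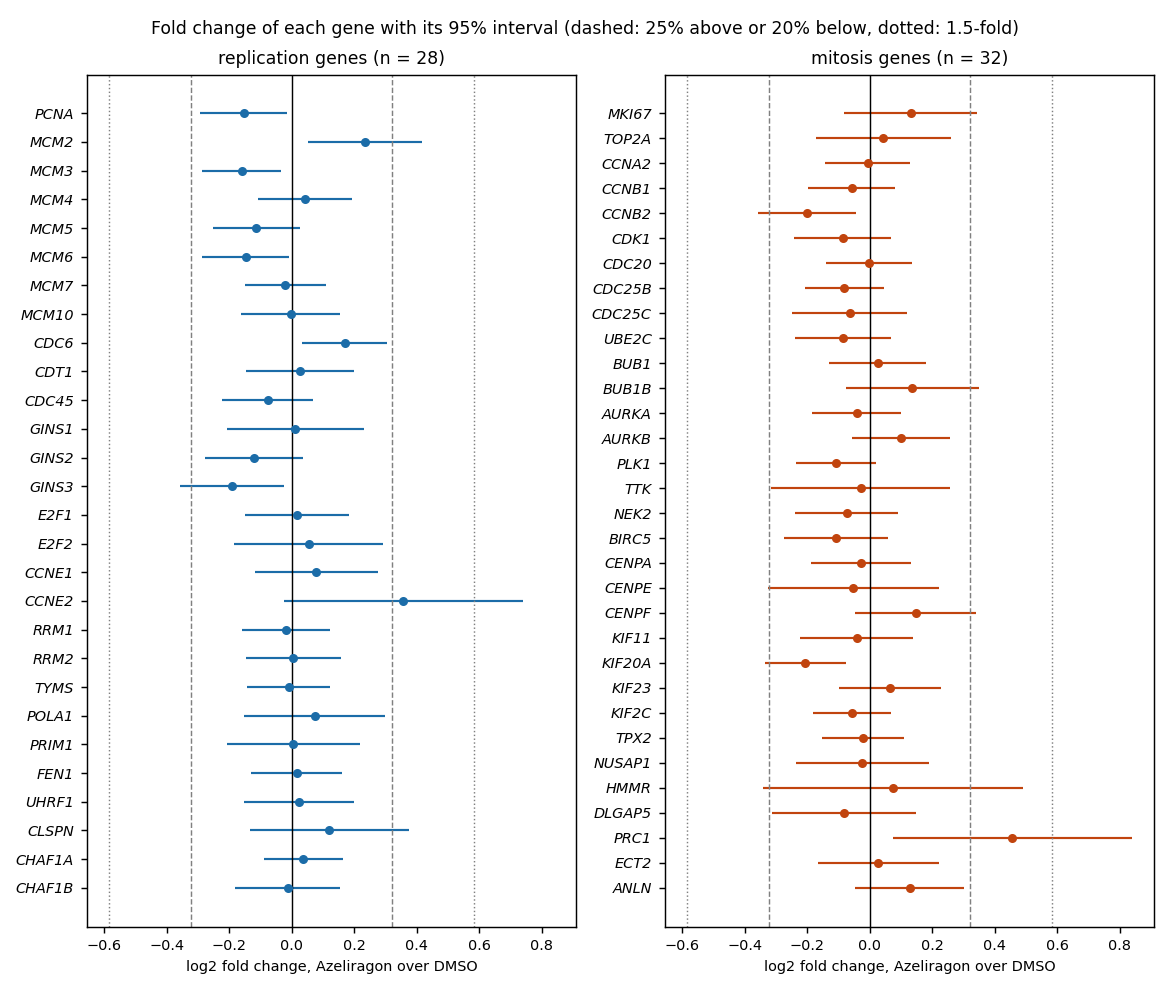
Log2 fold change of each of the 28 replication genes (left) and 32 mitosis genes (right) with its 95% interval (horizontal axis, Azeliragon over DMSO). Dashed lines mark 25% above and 20% below DMSO and dotted lines 1.5-fold in either direction, and CCNE2 and PRC1 alone reach past a dotted line.

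Averaged over genes, the libraries of the 2 conditions overlapped. For each library the log2 CPM of a gene was taken relative to its mean over the 6 libraries and averaged over the genes. For replication this score was 0.020, -0.015 and -0.021 in DMSO a, b and c, and 0.024, -0.0077 and -0.00035 in Azeliragon a, b and c. The ranges overlapped, and the mean difference of 0.011 corresponded to a ratio of 1.01 between Azeliragon and DMSO. For mitosis the score was 0.012, 0.026 and -0.035 in DMSO a, b and c, and 0.014, -0.026 and 0.0088 in Azeliragon a, b and c. These ranges overlapped as well, with a mean difference of -0.0019. Over the 9 pairs of an Azeliragon and a DMSO library, the ratio of the score over all 60 genes ran from 0.977 to 1.03. The score gives each gene the same weight. The summed level, which follows the abundant genes, was 8236, 8416 and 8401 CPM in DMSO a, b and c and 8195, 8240.2 and 8249 CPM in Azeliragon a, b and c. It was 0.985 times as high with Azeliragon, and DMSO a lay among the Azeliragon libraries.

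**Figure D3:**
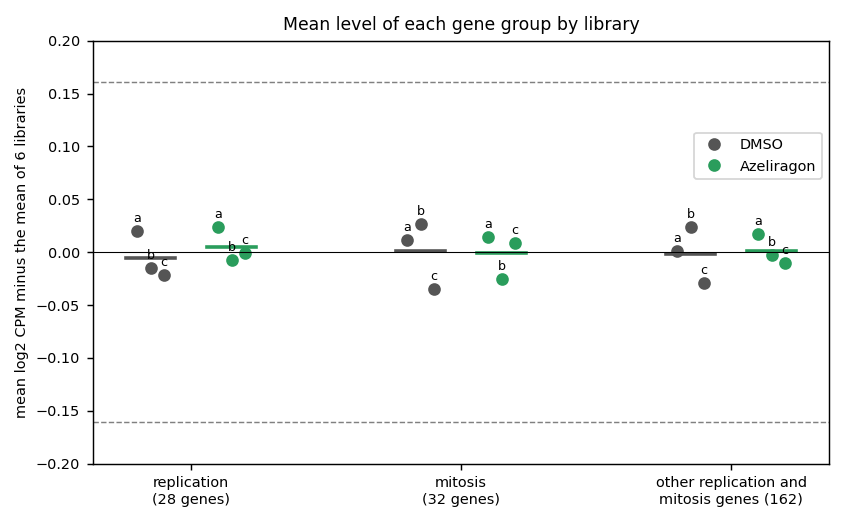
Mean log2 CPM of each gene group, relative to its mean over the 6 libraries (vertical axis), with a point for each library, lettered, and a bar for the mean of 3. The dashed lines are as far apart as a level and one 25% above it, and all 6 libraries lie close to 0 for replication, mitosis and 162 other genes of these processes.

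The replication and mitosis genes differed in the short sequences found in their promoters, which the choice of genes did not use. RefSeq windows of 300 bases (250 before to 50 after the start, GRCh38.p14) were at hand for 52 of the 60 genes. MCM4, MCM5, CCNE2, UBE2C, AURKA, TTK, BIRC5 and TPX2 had no window. Searched on both strands were E2F-type sites (TTTCCCGC, TTTCGCGC, TTTGCCGC or TTTGGCGC), the cell cycle homology region called CHR (TTTGAA or TTTAAA) and the CCAAT box (CCAAT). The letters of an E2F-type site on one strand can overlap those of another on the opposite strand, and each is then a match of its own. An E2F-type site was found for 16 of 25 replication genes (64.0%) and 3 of 27 mitosis genes (11.1%), against 3.3% of all 27305 windows. CHR letters were found for 3 of 25 replication genes (12.0%) and 21 of 27 mitosis genes (77.8%), against 24.3% of all windows. A CCAAT box stood in 73.1% of the windows of both groups together and in 35.7% of all windows. CHR and CCAAT occurred together in 17 of 27 mitosis windows (63.0%) and 9.5% of all windows. In the replication genes the median log2 fold change was 0.014 with an E2F-type site and 0.0048 without. In the mitosis genes it was -0.023 with CHR letters and -0.035 without. A match of letters does not show that a factor binds there.

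Windows of 4 genes are shown. They were picked by hand among genes that carry these motifs and whose groups of libraries did not overlap. Others, such as PCNA, MCM3, CDC6 and PLK1, met both points and are not shown. MCM2, whose estimate was the highest of the MCM genes, lies at chr3:127598161-127598460 on the plus strand, and MCM6, with an estimate below 0, at chr2:135876394-135876693 on the minus strand. CCNB2 lies at chr15:59104896-59105195 and KIF20A at chr5:138178862-138179161, both on the plus strand. Capitals mark E2F-type sites in MCM2 and MCM6, CHR letters in CCNB2 and KIF20A, and CCAAT boxes (ATTGG on the other strand) in all but MCM2.
MCM2: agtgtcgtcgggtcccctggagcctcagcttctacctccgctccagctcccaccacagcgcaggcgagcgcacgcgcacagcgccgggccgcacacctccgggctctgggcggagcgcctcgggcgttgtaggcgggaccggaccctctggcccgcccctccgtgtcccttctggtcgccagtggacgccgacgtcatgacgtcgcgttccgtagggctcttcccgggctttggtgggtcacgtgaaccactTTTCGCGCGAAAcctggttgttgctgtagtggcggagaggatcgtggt
MCM6: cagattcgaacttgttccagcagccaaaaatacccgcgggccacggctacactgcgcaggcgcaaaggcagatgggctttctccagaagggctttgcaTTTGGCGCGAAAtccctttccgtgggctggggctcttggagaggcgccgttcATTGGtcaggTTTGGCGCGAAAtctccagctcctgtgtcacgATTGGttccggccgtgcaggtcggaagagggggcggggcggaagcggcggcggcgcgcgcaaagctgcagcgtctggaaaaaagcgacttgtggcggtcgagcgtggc
CCNB2: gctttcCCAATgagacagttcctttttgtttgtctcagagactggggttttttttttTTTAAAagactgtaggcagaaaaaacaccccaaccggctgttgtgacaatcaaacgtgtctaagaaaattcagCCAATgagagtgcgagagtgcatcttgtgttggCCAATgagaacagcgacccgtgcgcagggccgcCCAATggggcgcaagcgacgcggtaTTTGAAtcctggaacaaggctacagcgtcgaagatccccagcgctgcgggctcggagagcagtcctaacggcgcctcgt
KIF20A: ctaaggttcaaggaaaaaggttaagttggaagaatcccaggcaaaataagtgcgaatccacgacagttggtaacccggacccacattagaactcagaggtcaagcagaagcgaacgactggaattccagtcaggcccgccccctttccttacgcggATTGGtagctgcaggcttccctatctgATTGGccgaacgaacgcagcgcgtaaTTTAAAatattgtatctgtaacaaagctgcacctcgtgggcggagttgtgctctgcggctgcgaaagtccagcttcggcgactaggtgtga
The stretch TTTCGCGCGAAA of MCM2 and both E2F-type stretches of MCM6 match on either strand, so that they count as 2 and 4 matches. MCM2 and MCM6 both carry E2F-type sites, and their estimates had opposite signs. Neither passed the threshold (edgeR adjusted p = 0.132 and 0.221), and whether the motif bears on direction was not tested.

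In origin licensing, CDC6 and CDT1 help to load the MCM2 to MCM7 ring, the core of the replicative helicase, onto DNA. CDC6 stood at 122, 118 and 115.5 CPM in DMSO a, b and c, and at 136, 127 and 137 CPM in Azeliragon a, b and c. All 3 Azeliragon libraries were above all DMSO libraries, by 1.12-fold in the fit (log2 fold change 0.17, with an interval of 0.03 to 0.31; edgeR adjusted p = 0.143). CDT1 overlapped between the groups, at 122 ± 6.4 CPM in DMSO and 124 ± 12 CPM with Azeliragon (SD, n = 3 each). Its log2 fold change was 0.03.

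The 6 subunits of the MCM ring did not share a direction. MCM2 stood at 201, 166 and 159 CPM in DMSO a, b and c, and at 201, 205 and 212 CPM in Azeliragon a, b and c. Azeliragon lay above DMSO without overlap, but DMSO a was within 1 CPM of Azeliragon a. The fitted ratio was 1.18 (log2 fold change 0.24, with an interval of 0.05 to 0.42; edgeR adjusted p = 0.132). MCM2 passed without a filter on low counts (edgeR adjusted p = 0.0230) and with trends on GC content and length removed (0.0263 by edgeR). Its partner MCM3 lay the other way, at 517, 541 and 556 CPM in DMSO a, b and c, and 474, 489 and 482 CPM in Azeliragon a, b and c. The groups did not overlap, and DMSO a was again the DMSO library nearest to Azeliragon (log2 fold change -0.16; edgeR adjusted p = 0.141). MCM6 stood at 97.8, 108 and 103 CPM in DMSO a, b and c, and at 92.5, 94.2 and 92.4 CPM in Azeliragon a, b and c (log2 fold change -0.15). MCM5 was also below without overlap, at 217, 231 and 245 CPM in Azeliragon a, b and c against 248, 245 and 256 CPM in DMSO a, b and c, with less than 1 CPM between the groups. MCM4 (log2 fold change 0.04) and MCM7 (-0.02) overlapped. MCM7 was the most abundant of the ring genes, at 739 ± 35 CPM in DMSO and 729 ± 10 CPM with Azeliragon (SD, n = 3 each).

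MCM10, CDC45 and the GINS genes turn the loaded ring into a moving helicase, and PCNA is the sliding clamp that holds polymerases on DNA. PCNA, on chromosome 20 at 5114953 to 5126626 (GRCh38, GENCODE 29), stood at 256, 287 and 286 CPM in DMSO a, b and c, and at 248, 252 and 245 CPM in Azeliragon a, b and c. The groups did not overlap, with DMSO a close to the Azeliragon libraries (log2 fold change -0.15; edgeR adjusted p = 0.201). GINS3 was steady within DMSO, at 29.3 CPM in each library, and lower in Azeliragon a, b and c, at 26.7, 24.99 and 25.3 CPM. Its interval, from -0.36 to -0.03 on the log2 scale, was below 0, but the adjusted p over all genes was 0.176 by edgeR. MCM10 (42.2 CPM in DMSO, 42.1 CPM with Azeliragon), CDC45, GINS1 and GINS2 had overlapping groups and log2 fold changes between -0.12 and 0.01. Counting clamp, licensing and helicase genes together, 2 of the 14 lay above DMSO without overlap and 5 below, where 12.1% of all genes tested lay above and 13.2% below.

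E2F1 and E2F2 are the activators of the first wave, and cyclins E1 and E2 drive CDK2 at the entry to S phase. E2F1 stood at 215, 229 and 256.5 CPM in DMSO a, b and c, and at 220.4, 244 and 246 CPM in Azeliragon a, b and c. The groups overlapped, and the log2 fold change was 0.02 with a 95% interval from -0.15 to 0.18. E2F2, 16.2 ± 2.3 CPM in DMSO, and CCNE1, 16.6 ± 0.28 CPM in DMSO (SD, n = 3 each), had log2 fold changes of 0.05 and 0.08. CCNE2 was among the lowest of the 60, at 8.20, 5.21 and 5.45 CPM in DMSO a, b and c, and 8.82, 8.55 and 6.80 CPM in Azeliragon a, b and c. DMSO a was as high as the Azeliragon libraries, and the interval was wide, from -0.03 to 0.74 on the log2 scale (estimate 0.36; edgeR adjusted p = 0.281).

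The enzymes that supply nucleotides and build DNA showed the smallest differences of the replication groups. RRM1 and RRM2 form ribonucleotide reductase, TYMS makes thymidylate, POLA1 and PRIM1 start each DNA chain and FEN1 trims the lagging strand. TYMS stood at 133, 128 and 134 CPM in DMSO a, b and c, and at 127, 132 and 135 CPM in Azeliragon a, b and c. FEN1 stood at 325 ± 20 CPM in DMSO and 328 ± 15 CPM with Azeliragon (SD, n = 3 each). The 6 genes had log2 fold changes between -0.02 and 0.07, all with overlapping groups and with intervals between 20% below and 25% above DMSO. On the same strand, exons of FEN1 overlap FADS2 (611 CPM in DMSO, log2 fold change 0.22). Those of PRIM1 overlap NACA (202 CPM in DMSO, log2 fold change -0.17), so the counts of FEN1 and PRIM1 are uncertain. UHRF1, which maintains DNA methylation, CLSPN, a fork checkpoint adaptor, and CHAF1A and CHAF1B, which deposit histones behind the fork, lay between -0.01 and 0.12. CHAF1A had the tightest interval of these 4, from -0.09 to 0.16, at 137 ± 2.2 CPM in DMSO and 141 ± 2.3 CPM with Azeliragon (SD, n = 3 each).

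MKI67, the Ki-67 antigen used to score proliferation in tumours, and TOP2A, the topoisomerase that untangles chromosomes, varied between libraries of 1 group more than between groups. MKI67 stood at 303, 265.5 and 232 CPM in DMSO a, b and c, and at 294, 263 and 320.3 CPM in Azeliragon a, b and c. Its groups overlapped, with a log2 fold change of 0.13 and a 95% interval from -0.08 to 0.34. With trends on GC content and transcript length removed, the log2 fold change of MKI67, whose longest transcript has 12678 bases, was 0.0026. TOP2A stood at 114, 119.7 and 94.3 CPM in DMSO a, b and c, and at 119.8, 98.7 and 119.4 CPM in Azeliragon a, b and c. A single library of each group was low, and the log2 fold change was 0.04.

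The genes around CDK1, the kinase that starts mitosis, all had estimates below 0, from -0.20 to -0.00088, without 1 of the 8 passing. Of all 16081 genes tested, 8182 had estimates below 0. With trends on GC content and length removed, CDC20 (log2 fold change 0.07) and CCNA2 (0.02) were above 0 and the others below. Without DMSO a, CCNA2 (0.01) alone was above 0. CCNB2, a B-type cyclin on chromosome 15 at 59105078 to 59125045, stood at 87.8, 100.4 and 102 CPM in DMSO a, b and c, and at 85.9, 83.4 and 83.6 CPM in Azeliragon a, b and c. The groups did not overlap, and DMSO a lay about 2 CPM above Azeliragon a (log2 fold change -0.20, with an interval of -0.36 to -0.04; edgeR adjusted p = 0.133). CCNB1, the other B-type cyclin, overlapped at 286 ± 17 CPM in DMSO and 275 ± 5.5 CPM with Azeliragon (SD, n = 3 each). CDK1 itself stood at 84.9, 93.5 and 80.0 CPM in DMSO a, b and c, and at 81.3, 81.5 and 80.6 CPM in Azeliragon a, b and c (log2 fold change -0.09). CCNA2, the A-type cyclin of S phase and G2, had 147 ± 3.8 CPM in DMSO and 146 ± 6.2 CPM with Azeliragon (SD, n = 3 each). CDC20, which activates the anaphase-promoting complex, had 418 ± 25 and 417 ± 9.4 CPM, and a log2 fold change of -0.00088. The phosphatase CDC25B was below DMSO without overlap, at 179.5, 189 and 182 CPM against 196, 195 and 191 CPM, with a log2 fold change of -0.08. Its relative CDC25C and UBE2C, the ubiquitin carrier of the anaphase-promoting complex, overlapped.

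Kinases and checkpoint genes of mitosis lay on both sides of 0. PLK1, which acts at centrosomes and kinetochores, stood at 177, 174 and 182 CPM in DMSO a, b and c, and at 161, 169 and 165 CPM in Azeliragon a, b and c. It was the 1 gene of the 8 without overlap, a share near the 13.2% of all genes that lay below DMSO, with a log2 fold change of -0.11 and a 95% interval from -0.23 to 0.02. AURKA, the kinase of the spindle poles, had a log2 fold change of -0.04. AURKB, the kinase of the chromosomal passenger complex, had one of 0.10. BIRC5, which encodes survivin of the same complex as AURKB, had -0.11. BUB1B, a spindle checkpoint gene, stood at 48.6, 38.7 and 37.1 CPM in DMSO a, b and c, and at 44.9, 46.0 and 45.9 CPM in Azeliragon a, b and c. DMSO a was its highest library, so the groups overlapped (log2 fold change 0.14). BUB1, TTK and NEK2 had log2 fold changes of 0.03, -0.03 and -0.07.

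Among the motor proteins, KIF20A had the smallest p of the 60 genes. KIF20A, needed at the central spindle, lies on chromosome 5 at 138178719 to 138187715. It stood at 119.5, 116 and 117 CPM in DMSO a, b and c, and at 100.5, 104 and 101 CPM in Azeliragon a, b and c. The groups were well apart and DMSO a did not lie toward Azeliragon (log2 fold change -0.21, with an interval of -0.33 to -0.08; edgeR adjusted p = 0.0652). It passed with DESeq2 (adjusted p = 0.0370), with a stricter filter on low counts (edgeR adjusted p = 0.0458) and with trends on GC content and length removed (edgeR adjusted p = 0.0267). Exons of KIF20A overlap CDC23 and BRD8, both on the opposite strand, and BRD8 fell to a similar degree (log2 fold change -0.25, edgeR adjusted p = 0.0325), so without a stated strand setting its count is uncertain. KIF11, KIF23 and KIF2C had log2 fold changes of -0.04, 0.07 and -0.06, with overlapping groups. CENPA, the histone variant of centromeres, CENPE and CENPF lay at -0.03, -0.05 and 0.15.

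Spindle and cleavage genes included the lowest counts of the set. TPX2, which activates AURKA on the spindle, was abundant and flat, at 362, 363 and 349 CPM in DMSO a, b and c, and 363, 362 and 334 CPM in Azeliragon a, b and c. PRC1, which bundles midzone microtubules, had only 3.10, 2.34 and 2.41 CPM in DMSO a, b and c, and 3.56, 3.28 and 3.95 CPM in Azeliragon a, b and c. Its groups did not overlap and its estimate was the largest of the 60 (log2 fold change 0.46, with an interval of 0.07 to 0.84; edgeR adjusted p = 0.164). Exons of PRC1 overlap the genes PRC1-AS1 and AC068831.7. AC068831.7 lies on the same strand and held 10.8 CPM in DMSO, so the PRC1 count is uncertain. HMMR stood at 2.10 ± 0.20 CPM in DMSO and 2.21 ± 0.20 CPM with Azeliragon (SD, n = 3 each), and an antisense gene overlaps it. NUSAP1 and DLGAP5, both microtubule-binding proteins, had log2 fold changes of -0.02 and -0.08. ECT2 and ANLN, which build the cleavage furrow, had 0.03 and 0.13.

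Compared per length, as TPM (scaled by length and library total) on the longest annotated transcript, UBE2C (623 TPM in DMSO), MCM7 (555 TPM), CDC20 (544 TPM), PCNA (470.2 TPM) and MCM3 (388 TPM) were the 5 highest of the 60. CCNE2 (4.42 TPM), CENPE (2.28 TPM), HMMR (1.57 TPM) and PRC1 (1.49 TPM) were the 4 lowest. In GENCODE 29, exons of 25 of the 60 genes overlap an exon of another gene, 20 of them on the opposite strand, and 12 have a pseudogene of their name. The counts of these genes are uncertain, because no source used here states the strand setting or the handling of reads with several matches. MCM2 overlaps TPRA1, and CCNE2 overlaps INTS8, each on the opposite strand, with log2 fold changes of 0.17 and -0.06 for the partners.

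Without regard to the threshold, Azeliragon lay above DMSO in all libraries for 3 of the 60 genes, against 12.1% of all genes tested, and below for 9, against 13.2%. The 3 above were MCM2, CDC6 and PRC1. The 9 below were PCNA, MCM3, MCM5, MCM6, GINS3, CCNB2, CDC25B, PLK1 and KIF20A.

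Leaving out DMSO a changed the number of genes called. With the other 5 libraries 13 of the 60 genes passed (21.7%), 7 higher and 6 lower with Azeliragon, where 23.7% of all genes tested passed, 12.9% higher and 10.8% lower. MCM2 (log2 fold change 0.35), CDC6 (0.19), CCNE2 (0.60), MKI67 (0.23), BUB1B (0.27), PRC1 (0.60) and ANLN (0.18) were then higher. PCNA (-0.21), MCM3 (-0.19), MCM6 (-0.18), CCNB2 (-0.27), BIRC5 (-0.17) and KIF20A (-0.19) were lower. Both lists mixed replication with mitosis genes, and MCM subunits were in each. For 12 of the 13, DMSO a lay beyond both other DMSO libraries on the side of Azeliragon, and KIF20A was the exception. The 13 genes missed the threshold with all 6 libraries and passed without DMSO a in the same test. Choosing them in this way favours such a position of DMSO a, and the same count over all genes was not made. The 7 higher genes had longest transcripts of 3330 to 12678 bases (median 4087) and the 6 lower genes of 1359 to 3736 bases (median 2956). The median over all genes tested was 3188 bases. Over all genes, log2 fold change without DMSO a correlated with log2 length at 0.0846. With the trends on GC content and length removed as well, 4 of the 60 were higher and 5 lower, where 22.6% of all genes tested passed. MKI67 (log2 fold change -0.01), CDC6 (0.12), ANLN (0.14) and BIRC5 (-0.13) were the 4 of the 13 that then did not pass. The median log2 fold change remained small without DMSO a, at -0.0089 for replication and -0.026 for mitosis, and 57 intervals still lay inside 1.5-fold. Leaving out any other single library called none of the 60 genes.

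**Figure D4:**
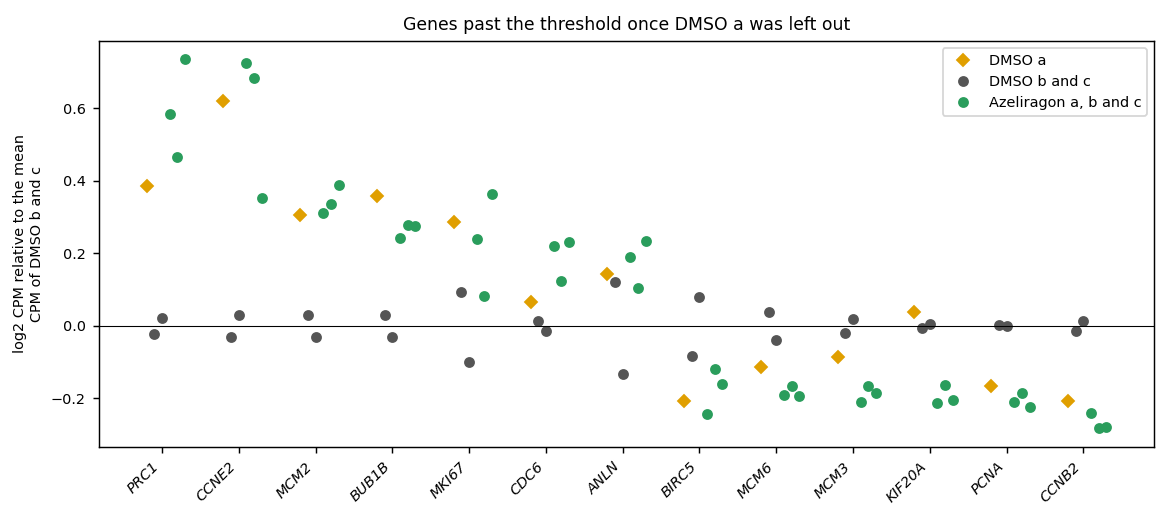
Level of the 13 genes called without DMSO a in each library, as log2 CPM relative to the mean CPM of DMSO b and c (vertical axis), with a point per library. DMSO a lies with or toward the Azeliragon libraries for 12 genes, and with DMSO b and c for KIF20A. Choosing genes by their call without DMSO a favours this position.

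A further 164 genes of the same processes were listed by role, and 162 could be tested. Of these, 2 rose, 3 fell and 157 did not pass, where 6.27% of all genes tested passed. Without DMSO a, 34 of the 162 passed (21.0%), 19 higher and 15 lower, where 23.7% of all genes did. With all 6 libraries, no gene passed among 21 for origin licensing and firing, 11 for nucleotide and histone supply, 30 for kinetochore and checkpoint, 16 for condensin, cohesion and anaphase, or 33 for spindle, centrosome and cytokinesis. Without DMSO a, 2, 4, 7, 5 and 4 genes of these lists passed, in the same order. The most abundant gene in each of these lists had a log2 fold change between -0.12 and 0.13 with all 6 libraries. They were RECQL4 (a helicase of origin firing, 0.085), TK1 (thymidine kinase, -0.11), BUB3 (spindle checkpoint, 0.13), UBE2S (ubiquitin chains at anaphase, 0.10) and TACC3 (spindle, -0.12). Of these, TK1 (-0.19) and TACC3 (-0.16) passed without DMSO a (edgeR adjusted p = 0.0132 and 0.0126). Of 21 polymerase, clamp loader and RPA genes, POLD4 alone passed, and 3 did without DMSO a. This small subunit of polymerase delta stood at 10.3, 11.8 and 13.1 CPM in DMSO a, b and c, and fell to 8.26, 8.09 and 7.93 CPM in Azeliragon a, b and c (log2 fold change -0.53, SE 0.11; edgeR adjusted p = 0.0141). Its call was lost without DMSO b or any 1 Azeliragon library (edgeR adjusted p up to 0.0733).

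The list of G1 cyclins, their kinases and the E2F and RB families, with 24 genes, held 2 of the higher and 1 of the lower calls. Over all genes tested, 2.75% were called higher and 3.53% lower. Without DMSO a, 6 genes of this list were higher and 1 lower (29.2% together). Of all genes tested, 12.9% were then higher and 10.8% lower. CCND1, cyclin D1, rose from 779, 720.3 and 709.7 CPM in DMSO a, b and c to 869, 914 and 903 CPM in Azeliragon a, b and c. The groups did not overlap (log2 fold change 0.28, SE 0.06; edgeR adjusted p = 0.0157). The repressor E2F7 rose from 123 ± 26 to 170.3 ± 10 CPM (SD, n = 3 each; log2 fold change 0.47; edgeR adjusted p = 0.0348), with DMSO a, at 153 CPM, nearest to Azeliragon. MYBL2, which encodes B-MYB of the later wave, fell from 122 ± 6.7 to 102 ± 1.9 CPM (SD, n = 3 each; log2 fold change -0.26; edgeR adjusted p = 0.0346). The other 21 genes of this list, which holds the cyclin D kinases and the RB family, did not pass. E2F7 and MYBL2 kept their calls only where DMSO a was the library left out (largest adjusted p by edgeR otherwise, 0.189 and 0.200). Without DMSO a their log2 fold changes were 0.65 and -0.30 (edgeR adjusted p = 7.46e-09 and 0.000125). CCND1 lost its call without DMSO b or any 1 Azeliragon library (up to 0.120 by edgeR). With library totals in place of TMM, E2F7 missed the threshold as well (edgeR adjusted p = 0.0622).

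Genes named as CDK inhibitors, which hold the cycle back, had estimates below 0 for all 6 that could be tested. They include CDKN3 (log2 fold change -0.03, with overlapping groups). Estimates were below 0 for 8182 of all 16081 genes tested. Of the 6 genes 1 passed, where 6.27% of all genes tested did. Without DMSO a, 2 passed, where 23.7% of all genes tested did. CDKN2C, the p18 inhibitor of CDK4 and CDK6, stood at 170.1, 170.1 and 179 CPM in DMSO a, b and c and fell to 149, 135 and 137 CPM in Azeliragon a, b and c (log2 fold change -0.30, SE 0.06; edgeR adjusted p = 0.0146). Leaving out DMSO b, or the second or the third Azeliragon library, ended this call (largest adjusted p by edgeR, 0.119). CDKN1A, the p21 inhibitor, stood at 153 ± 2.4 CPM in DMSO and 144 ± 3.3 CPM with Azeliragon (SD, n = 3 each), with a 95% interval of the log2 fold change from -0.21 to 0.04. CDKN1B, the p27 inhibitor, had a log2 fold change of -0.11. CDKN2A and CDKN2B, which this line is known to lack, had 0 reads in all 6 libraries, and 3 reads in a library would have been 0.0677 to 0.0724 CPM.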

How the data were processed

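Per the labels, polyadenylated RNA of MDA-MB-231 cells was sequenced in 6 libraries. The authors deposited raw counts per gene. Per the submitters' processing notes, which give no roles, the build was GRCh38 and the tools were featureCounts 1.5.0-p3, STAR 2.6.1d and limma. No source used here states the strand setting or the annotation. Column names were matched to titles by condition and letter.

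In the deposited counts, 2 rows whose name is a bare number (0% of all reads) were not used. Genes were kept with filterByExpr, scaled by TMM and compared with glmQLFit and glmQLFTest of edgeR 4.0.16 (R 4.3.3), with treatment as the only term. Intervals are 95% intervals from the fitted standard error and its degrees of freedom. DESeq2 1.42.0, limma 3.58.1 (voom) and the other settings listed at the end were run as alternatives. The script was tested on simulated data. Gene models, lengths and overlaps came from GENCODE 29, which held a unique model for 99.5% of genes tested, and promoter windows from RefSeq.

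The 60 genes, their grouping by role and the 164 further genes were chosen with earlier results of these data known. All 60 could be named. Of each further list, up to 4 called genes with the largest change were named, or else its most abundant gene. CDKN1A, CDKN1B, CDKN2A, CDKN2B, CDKN3 and overlapping genes were named after their values were seen.

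The letters a, b and c were not treated as pairs. Deviations from the group means correlated at 0.027, 0.022 and -0.044 between libraries of the same letter.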

Additional observations from a re-analysis of the deposited data

How the results depend on the processing

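Of the whole table, 1009 genes passed. The number was 1685 without a filter on low counts, 1691 with trends on GC content and length removed, 1544 with these trends removed together with the replicate block, 59 with glmTreat against a 1.5-fold change, 3735 with trends removed and DMSO a left out (a setting chosen after seeing the data), and 445 to 3916 with each library left out in turn. None of the 60 genes was called higher or lower in the edgeR test with TMM factors and filterByExpr on all 6 libraries. MCM2 alone was higher without a filter (1 gene), with trends removed (1) and with trends removed and the replicate block (1). KIF20A alone was lower with the stricter filter (1 gene), with DESeq2 (1) and with trends removed (1). Of all genes tested, 5.78% passed without a filter, 8.06% with the stricter filter and 8.83% with DESeq2. With trends removed 10.5% passed, and 9.60% with the replicate block added. With trends removed and DMSO a left out, 4 of the 60 were higher and 5 lower, where 22.6% of all genes tested passed. With each library left out in turn, 0 to 7 of the 60 were higher and 0 to 6 lower. The numbers above 0 came only without DMSO a, where 23.7% of all genes tested passed. The median log2 fold change of the replication genes was 0.0341 with trends removed, 0.0343 with the replicate block added, 0.0502 with trends removed and DMSO a left out, and -0.0089 to 0.0142 with each library left out. That of the mitosis genes moved by less than the spread between libraries under each setting tried. Between 57 and 58 intervals lay inside 1.5-fold under each setting that gave intervals. With RLE factors, library totals, limma-voom, glmTreat or the replicate block alone, none of the 60 passed, and the block gave 908 calls in the whole table. MYBL2 missed the threshold with the block (edgeR adjusted p = 0.0565). No label says that a letter marks a shared culture. None of the 60 genes reversed its direction past the threshold under any of these settings. At this depth 1 read was worth about 0.02 CPM, and HMMR, PRC1 and CCNE2, at under 10 CPM, had the widest intervals.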
